A study of Mus musculus with 8 samples.

Results

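Cardiomyocytes are joined end to end at the intercalated disc, and 10 genes of that structure were followed in neonatal cardiomyocytes (NCMs) after gestational exposure to filtered air (FA) or diesel exhaust (DE). They were chosen by symbol, with earlier results of these data known, as 3 connexins (Gja1, Gja5 and Gjc1) and 7 genes of the adhesive junctions (Cdh2, Dsp, Dsg2, Dsc2, Pkp2, Jup and Ctnna3). All 10 were found among the 27179 genes of the count table, and all 10 passed the filter on low counts that left 14966 genes for testing.

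The disc holds 3 kinds of contact. Gap junctions are channels built from connexins, which pass ions from cell to cell and so carry the electrical impulse. In fascia adherens junctions, cadherins on neighbouring cells bind each other and are tied to actin by catenins. In desmosomes, desmogleins and desmocollins bind across the gap, and plakoglobin, plakophilin and desmoplakin tie them to desmin filaments. In the mammalian heart the adhesive junctions mix into a hybrid zone called the area composita. Around birth these junctions are still spread over the cell surface and gather at the cell ends only later. Mutations in the desmosomal genes cause arrhythmogenic cardiomyopathy in humans.

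RNA was sequenced from 8 libraries, 4 of FA offspring (replicates 2, 3, 4 and 6) and 4 of DE offspring (replicates 1, 3, 5 and 7), each made from the NCMs of 1 male heart on postnatal day 0. The methods give fewer hearts per group for RNA-seq than the libraries labelled here, and which were used there is not stated. All offspring were C57Bl/6J mice whose dams were mated in FA and then assigned to FA or DE from embryonic day 0.5 until shortly before birth, with DE given for part of the day on weekdays. Hearts were trimmed of atrial and vascular tissue and dissociated, and fibroblasts were left to attach to a plate in medium with Ara-C before the cells still in suspension were collected, so the samples are enriched for cardiomyocytes rather than pure. The labels give no litter or dam, and whether pups shared a dam is not known. In the sample names, DE replicates 3 and 5 carry the number 12 and the other 6 libraries carry 11, and the meaning of this prefix is not stated in the sources used here. No FA library carries 12, so for those DE libraries prefix and exposure cannot be told apart.

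Libraries held 17943024 to 39839737 counted fragments. Levels are given as CPM, counts relative to library size after TMM factors that correct for differences in RNA composition. Exposure was tested in edgeR with the quasi-likelihood method. A gene counted as called at a Benjamini-Hochberg adjusted p of at most 0.05 and a large enough change in level. For this, the higher group level had to be at least 25% above the lower one, in either direction. Of all tested genes 868 were called (5.80%), with 332 lower in DE (2.22%) and 536 higher (3.58%). Scaling by library totals alone turned this split to 217 lower and 803 higher. The summed level of 12 cardiomyocyte markers lay between 65904 and 82850 CPM in all libraries. FA libraries spanned 78003 to 82850 CPM and DE libraries 65904 to 76569 CPM, without overlap. Of these markers 2 were called lower and 1 higher.

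Each of the 10 genes had a log2 fold change (DE over FA) below 0, and their median was -0.41, where 49.5% of all tested genes lay below 0 with a median of 0.00371. Of the 12 cardiomyocyte markers, 10 also lay below 0 and 2 above, with a median of -0.11. In the prefix 11 libraries alone the median was -0.26 for the 10 genes and -0.28 for these markers. Gja1, Dsg2 and Jup were called lower, 0 were called higher, and 7 of the 10 had an unadjusted p under 0.05, as did 25.6% of all tested genes. FA and DE values lay apart for 4 genes (Gja1, Dsg2, Jup and Pkp2), against 7.26% of all tested genes without overlap and with DE lower. The value of each gene stayed below 0 in all 22 alternative settings, while the count of called genes ranged from 0 to 5. As these are bulk samples, fewer cells of a type and less RNA per cell cannot be told apart.

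**Figure D1:**
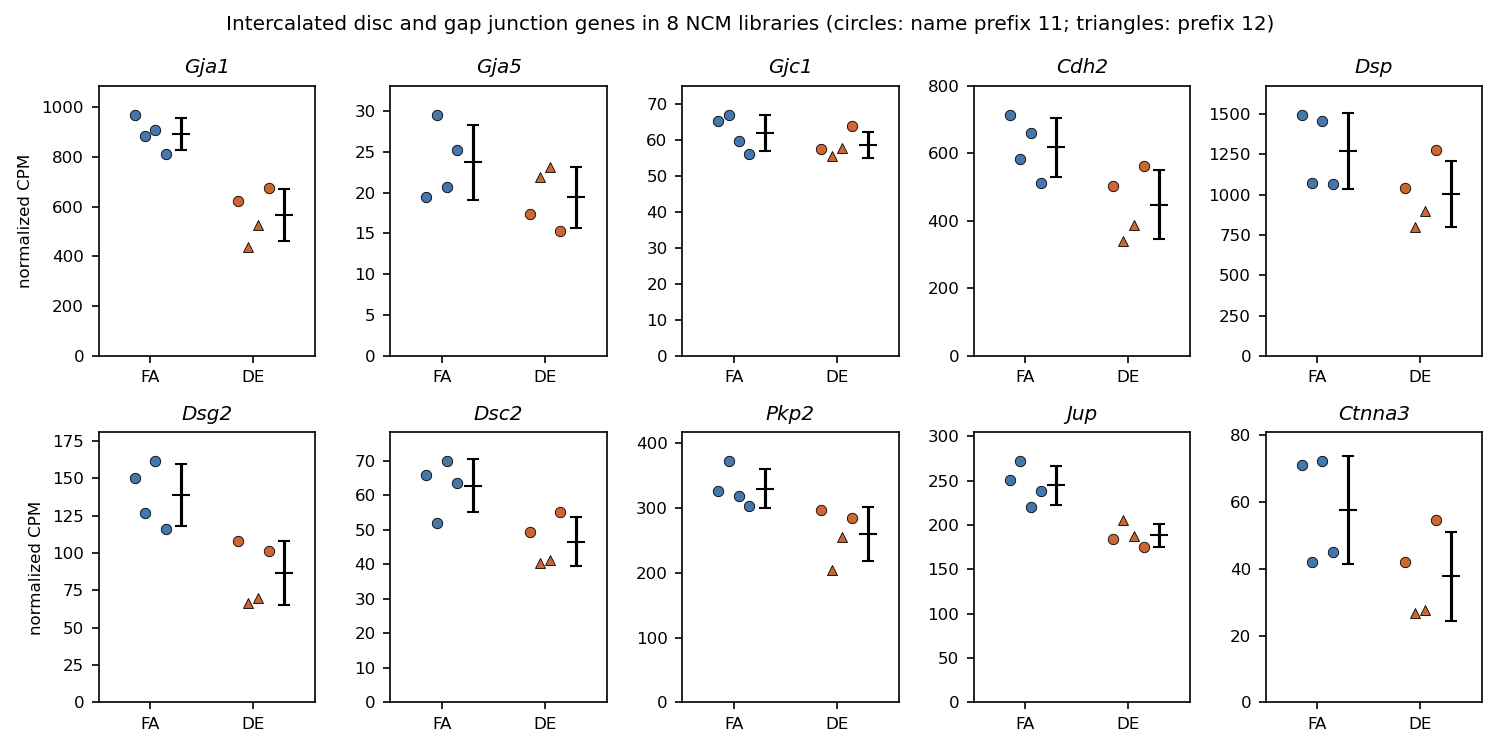
Normalized CPM of the 10 genes (1 panel each, vertical axes from 0) in the 4 FA and 4 DE libraries, with the mean and SD of each group beside the points. Circles are libraries with name prefix 11 and triangles those with prefix 12. All 4 DE points lie below all 4 FA points for Gja1, Dsg2, Pkp2 and Jup, and Gjc1 is near 60 CPM in both groups.

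In order of level per kilobase of the longest transcript (CPM per kilobase), Gja1 stood first in FA at 229.9 ± 16.6 (SD, n = 4), above every value of the next gene. Dsp at 132.4 ± 24.5, Cdh2 at 127.6 ± 18.1 and Pkp2 at 112.6 ± 10.1 CPM per kilobase followed, and these 3 overlapped one another. Jup at 76.4 ± 6.80 CPM per kilobase lay apart from both neighbours. Dsg2 (24.0 ± 3.62), Gjc1 (18.2 ± 1.48), Ctnna3 (15.6 ± 4.41), Dsc2 (13.6 ± 1.65) and Gja5 (6.46, from 5.31 to 8.04 CPM per kilobase) closed the order. Of these, Gjc1, Ctnna3 and Dsc2 form a chain of overlapping neighbours, while the lowest Dsg2 value, 20.1, lay just above the highest Gjc1 value, 19.6 CPM per kilobase. With coding length in place of transcript length Gja1 remained first, Cdh2 passed Dsp, Gjc1 (52.2) passed Dsg2 (41.2 CPM per coding kilobase), and Ctnna3 and Gja5 (21.4 ± 6.04 and 21.5 ± 4.16) could not be ordered within their spread.

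Regulatory sequence was looked up for the 10 genes in RefSeq's promoter windows on GRCm38.p6, and windows were found for Gja1, Gja5, Jup, Dsp and Ctnna3 (7 windows). Bases upstream of the transcription start are shown for Gja1 and Jup, which were called, and for Gja5, a connexin whose pattern over the libraries differed from theirs. The Jup stretch is shorter, with 201 bases, as bases inside the annotated gene were left out. Capitals mark every match to 9 short motifs searched on both strands.
Gja1 (chr10:56377050-56377299, plus strand): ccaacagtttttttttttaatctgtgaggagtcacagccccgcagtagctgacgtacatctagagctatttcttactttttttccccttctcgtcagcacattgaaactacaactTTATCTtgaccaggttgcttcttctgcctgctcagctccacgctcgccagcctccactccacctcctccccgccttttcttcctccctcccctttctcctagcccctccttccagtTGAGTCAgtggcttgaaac
Jup (chr11:100397840-100398040, minus strand): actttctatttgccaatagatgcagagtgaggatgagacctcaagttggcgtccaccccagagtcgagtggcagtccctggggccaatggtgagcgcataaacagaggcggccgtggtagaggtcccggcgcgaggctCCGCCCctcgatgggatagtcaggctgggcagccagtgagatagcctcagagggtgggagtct
Gja5 (chr3:97032152-97032401, plus strand): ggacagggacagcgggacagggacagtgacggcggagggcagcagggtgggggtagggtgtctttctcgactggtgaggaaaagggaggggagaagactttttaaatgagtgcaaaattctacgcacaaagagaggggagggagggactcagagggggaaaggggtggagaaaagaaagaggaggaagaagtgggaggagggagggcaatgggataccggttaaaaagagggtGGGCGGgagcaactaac

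Positions are counted back from the window's transcription start, and shares are of all 32851 windows of 250 bases. The Gja1 window held the AP-1 motif, spelled TGANTCA, from -19 to -13 (6.75% of windows), and the motif of GATA factors, spelled AGATAA, on the reverse strand from -135 to -130 (9.99% of windows). A GC box, spelled GGGCGG, lay at -112 to -107 and, past the bases shown, at -42 to -37 in the Jup window, and at -17 to -12 in that of Gja5. GC boxes were found in 32.7% of windows, and in those of Dsp and Ctnna3 too. Among the members, the TATA box motif TATAAA (12.4% of windows), the xenobiotic response motif TNGCGTG (4.1%) and the nuclear receptor half-site AGGTCA (14%) were found in Ctnna3 windows only. In none of the 7 windows were the letters of the T-box motif GGTGTGA (3.33%), the NKX2-5 motif TNAAGTG (10.1%) or the E-box CACGTG (6.02%). No matches overlapped in the windows shown, and a match shows no binding.

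Among the gap junction genes, Gja1 (Entrez gene 14609, chromosome 10 from 56377300 to 56390419, GRCm38.p6 as for all genes below) encodes connexin 43, the main connexin of ventricular muscle. It was at 969, 886, 908 and 813 CPM in FA replicates 2, 3, 4 and 6, and at 623, 437, 528 and 676 CPM in DE replicates 1, 3, 5 and 7. The groups did not overlap, and both prefix 12 libraries were the lowest of all. On average Gja1 fell to 566.1 ± 105.4 CPM in DE, where FA had 894 ± 64.6 CPM (SD, 4 libraries each). In edgeR this was -0.66 on the log2 scale with a standard error of 0.13 (adjusted p = 0.0198), or -36.7%. The call was lost without FA replicate 2 (adjusted p = 0.0702) and without FA replicate 4 (adjusted p = 0.0642), and remained in the other 6 fits that left out 1 library. In the prefix 11 libraries alone the log2 fold change was -0.47 (adjusted p = 0.0931).

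Gjc1 (chromosome 11 from 102799477 to 102819686) encodes connexin 45, a connexin of the early heart and of conducting tissue. It lay at 65.4, 66.96, 59.6 and 56.2 CPM in the FA replicates and at 57.4, 55.5, 57.7 and 63.9 CPM in the DE replicates, in the order used above. The groups overlapped, and the log2 fold change of -0.08 was not called (95% confidence interval -0.29 to 0.13, adjusted p = 0.612). Under the alternatives it lay between -0.13 and -0.01.

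Gja5 (chromosome 3 from 97032402 to 97053634) encodes connexin 40, which is found in atrial muscle, the ventricular conduction system and arterial endothelium. It was at 19.5, 29.5, 20.7 and 25.2 CPM in FA and at 17.4, 21.9, 23.2 and 15.2 CPM in DE. Its FA and DE values overlapped, and it was not called (log2 fold change -0.28, interval -0.64 to 0.08, adjusted p = 0.310). Within DE it was ordered differently from Gja1, with the prefix 12 libraries above the prefix 11 libraries (log2 difference 0.46, unadjusted p = 0.0301, adjusted p = 0.171, in a model of 3 groups). The prefix 11 libraries alone gave a log2 fold change of -0.54 (adjusted p = 0.157), and leaving out FA replicate 3, its highest library, gave -0.16 (adjusted p = 0.561). Exons of Gja5 overlap those of Gpr89 on the other strand, at 7.83 to 11.7 CPM, and since the strand setting of the counting is not stated, some fragments of either gene could be counted for the other.

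Because Gja1 and Gjc1 differed in their change, the make-up of the connexin transcripts was compared within each library, per kilobase of transcript. This comparison was chosen after their values were seen. Gja1 made up 91.1%, 89.2%, 91.0% and 90.0% of the 3 connexins in FA replicates 2, 3, 4 and 6, and 88.1%, 83.5%, 85.4% and 88.4% in DE replicates 1, 3, 5 and 7. The ratio of Gja1 to Gjc1 was 11.6 to 13.4 in FA and 6.92 to 9.53 in DE, without overlap. Gja5 held 1.94% to 3.15% in FA and 2.11% to 4.43% in DE, which overlapped. A ratio within a library does not depend on its scaling, and it shows unequal change, not which of the genes moved. As Gja1 and Gjc1 were paired because their changes differed, the gap in their ratio restates that difference and is not separate evidence.

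**Figure D2:**
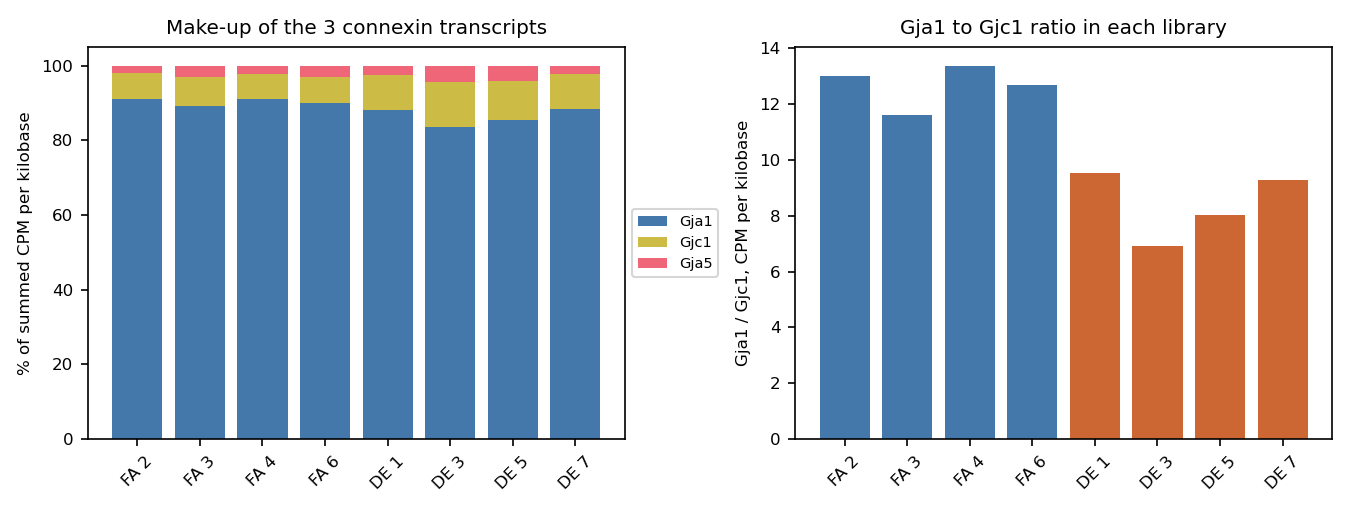
Left, the share of Gja1, Gjc1 and Gja5 in their summed CPM per kilobase in each library (stacked bars to 100%). Right, the ratio of Gja1 to Gjc1 in CPM per kilobase, FA in blue and DE in orange. FA bars reach 11.6 to 13.4 and DE bars 6.92 to 9.53.

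The 3 called genes were also set against each of the 12 cardiomyocyte markers within a library, a reading added after the data were seen. The markers themselves were unequal, from Ttn (log2 fold change -0.80, adjusted p = 0.0562) and Myh6 (-0.67, called lower, adjusted p = 0.00315) to Myh7 (0.53, called higher, adjusted p = 0.0157), with Tnnt2 at -0.06 (adjusted p = 0.786), all by edgeR. For Gja1, the DE libraries lay below all FA libraries with 3 of the 12 markers as reference (Tnnt2, Myh7 and Tnni1). Per 1000 Tnnt2 counts Gja1 gave 91.7 to 127.5 counts in FA and 56.6 to 91.6 in DE, and per 1000 Myh6 counts 33.7 to 41.7 in FA and 31.8 to 46.4 in DE. The groups lay apart with 1 of the 12 references for Dsg2 and with 4 for Jup. Against the summed counts of all 12 markers each of the 3 genes overlapped between FA and DE, with Gja1 at 9.81 to 12.3 counts per 1000 in FA and 6.64 to 10.1 in DE.

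At the adherens junction, Cdh2 (chromosome 18 from 16588877 to 16809246) encodes N-cadherin, the classical cadherin of heart muscle. It was at 714, 584, 660 and 514 CPM in FA and at 502, 342, 389 and 562 CPM in DE. Only DE replicate 7 reached into the FA range. The log2 fold change was -0.46 (standard error 0.16, interval -0.82 to -0.11) and was not called (adjusted p = 0.108). In the prefix 11 libraries alone it was -0.22, and in a fit that corrects each library for transcript length and GC content by offsets Cdh2 was called (-0.44, adjusted p = 0.0437).

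Ctnna3 (chromosome 10 from 63430098 to 65003667) encodes alpha-T-catenin, which binds plakophilin 2 and links the area composita to actin. It was at 71.0, 42.2, 72.1 and 44.9 CPM in FA and at 41.9, 26.6, 27.8 and 54.7 CPM in DE. FA replicates 2 and 4 stood well above FA replicates 3 and 6, which lay in the DE range. The log2 fold change of -0.61 had a standard error of 0.25 and was not called (adjusted p = 0.152). It was -0.26 in the prefix 11 libraries alone.

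Jup (chromosome 11 from 100368856 to 100397839) encodes plakoglobin, which serves in both adherens junctions and desmosomes. It was at 250.2, 271.7, 219.8 and 238.0 CPM in FA and at 184.7, 205.9, 187.1 and 175.5 CPM in DE. The groups did not overlap and the spread in DE was narrow. Its average fell to 188.3 ± 12.8 CPM in DE, where FA had 244.9 ± 21.8 CPM (SD, 4 libraries each), which edgeR gave as -0.38 on the log2 scale, with a standard error of 0.10 and an adjusted p of 0.0465. This call was near the threshold and was lost whichever of the 8 libraries was left out, where the adjusted p ran from 0.0610 (without FA replicate 6) to 0.130 (without FA replicate 2) and the log2 fold change from -0.44 to -0.33. The prefix 11 libraries alone gave -0.45 (adjusted p = 0.107), and within DE the prefixes differed by 0.13 (adjusted p = 0.586).

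Among the desmosomal cadherins, Dsg2 (chromosome 18 from 20558074 to 20604526) encodes desmoglein 2, the only desmoglein of heart muscle. It was at 150.3, 127.0, 161.2 and 115.8 CPM in FA and at 108.1, 66.4, 70.0 and 101.6 CPM in DE. The groups did not overlap, and within DE the prefix 12 libraries were the lower pair. Dsg2 fell to an average of 86.5 ± 21.4 CPM in DE, where FA had 138.6 ± 20.8 CPM (SD, 4 libraries each). The edgeR estimate was -0.68 on the log2 scale with a standard error of 0.17 (adjusted p = 0.0440), or -37.6%. Leaving out FA replicate 2 (adjusted p = 0.127), FA replicate 3 (0.0667), FA replicate 4 (0.129), DE replicate 3 (0.118) or DE replicate 5 (0.0962) each ended the call. The prefix 11 libraries alone gave -0.41 (adjusted p = 0.199). An antisense gene, Gm16090, overlaps exons of Dsg2, and the same limit on strand applies.

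Dsc2 (chromosome 18 from 20030633 to 20059554), the desmocollin partner of Dsg2, was at 65.7, 51.9, 69.8 and 63.6 CPM in FA and at 49.4, 40.4, 41.4 and 55.2 CPM in DE. DE replicate 7 alone lay above the lowest FA library. Its log2 fold change of -0.43 (standard error 0.13) was not called (adjusted p = 0.0720), but DESeq2 (adjusted p = 0.0311), edgeR's likelihood ratio test (0.0317) and the length and GC offsets (0.0182) called it. In the prefix 11 libraries alone it was -0.27 (adjusted p = 0.371).

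Of the desmosomal plaque genes, Pkp2 (chromosome 16 from 16213345 to 16272712) encodes plakophilin 2, an armadillo protein that also helps to place connexin 43 at the disc. It was at 326.4, 372, 318.8 and 302.7 CPM in FA and at 297.4, 203.8, 254.7 and 285.4 CPM in DE. The groups were separated by a narrow gap, between FA replicate 6 and DE replicate 1, and the log2 fold change of -0.34 (standard error 0.13) was not called (adjusted p = 0.124). In the prefix 11 libraries alone it was -0.18.

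Dsp (chromosome 13 from 38151294 to 38198577), which encodes desmoplakin, the link to desmin, had the highest counts of the set, 246973 fragments over the 8 libraries. It was at 1494, 1071, 1453 and 1063 CPM in FA and at 1038, 798, 901 and 1277 CPM in DE, and the groups overlapped. As for Ctnna3, FA replicates 2 and 4 were the higher pair. The log2 fold change was -0.34 (interval -0.70 to 0.02, adjusted p = 0.221), and the prefix 11 libraries alone gave -0.14. Exons of Gm10129, on the other strand, overlap those of Dsp.

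**Figure D3:**
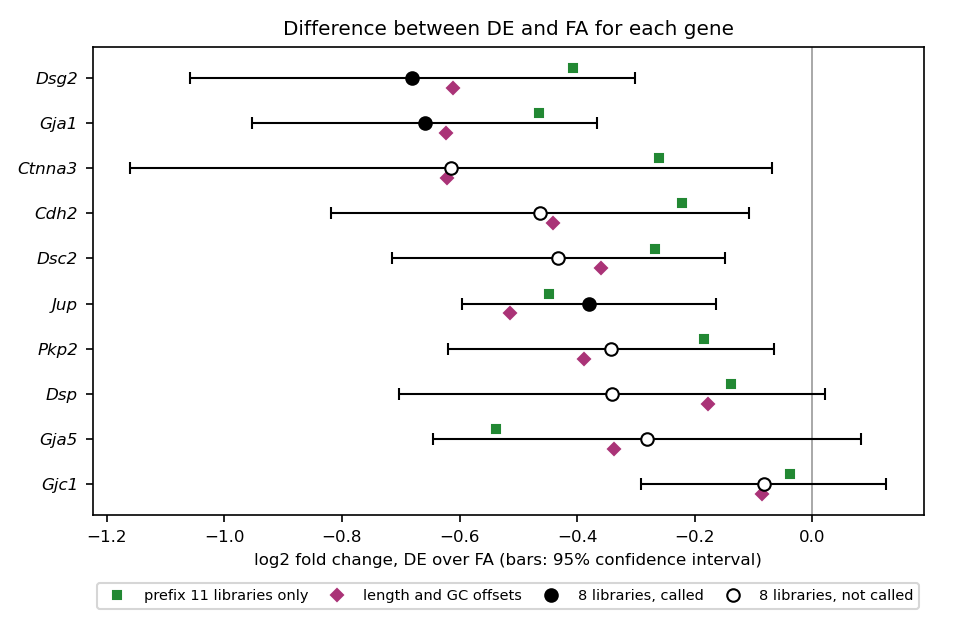
log2 fold change of DE over FA for each gene with its 95% confidence interval over all 8 libraries (filled circles called, open circles not called), with the values from the prefix 11 libraries alone (green squares) and with length and GC offsets (purple diamonds). All values lie below 0, and the prefix 11 values are nearer to 0 than the circles except for Jup and Gja5.

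Several genes shared an order of the libraries. The prefix 12 libraries, DE replicates 3 and 5, were the lowest 2 of all 8 for 7 of the 10 genes (all but Gja5, Gjc1 and Jup), as they were for 17.7% of all tested genes. FA replicates 2 and 4 were the highest 2 of the FA libraries for 6 of the 10 genes, against 27.7% of all tested genes. In the model of 3 groups, the prefix 12 libraries were lower than the prefix 11 libraries of DE by log2 differences of 0.83 for Ctnna3, 0.62 for Dsg2, 0.54 for Cdh2, 0.45 for Dsp and 0.43 for Gja1. Of the 10 genes 0 were called in that comparison by edgeR, where 2.06% of all tested genes were, and 8 of the 10 had an unadjusted p under 0.05 (7 lower in prefix 12, and Gja5 higher), where 23.3% did in either direction. Against FA, both pairs of DE libraries had values below 0 for each of the 10 genes, such as -0.46 (prefix 11) and -0.89 (prefix 12) for Gja1. In the same model 7 of the 10 genes were called lower in the prefix 12 libraries than in FA (all but Gja5, Gjc1 and Jup), where 13.4% of all tested genes were called lower and 23.4% in either direction. In a fit of the prefix 11 libraries alone 0 of the 10 were called by edgeR, where 1.75% of genes were, and 4 had an unadjusted p under 0.05, where 16.6% did.

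The same libraries stood apart in transcript length. The median deviation of genes with transcripts of 6000 bases or more, minus that of genes between 1000 and 3000 bases, was 0.42 and 0.37 on the log2 scale in FA replicates 2 and 4, and -0.17 and -0.06 in FA replicates 3 and 6. It was 0.10 and 0.11 in DE replicates 1 and 7, and -0.36 and -0.41 in DE replicates 3 and 5. Over all tested genes, the median log2 fold change of DE over FA ran from 0.18 for transcripts under 1000 bases to -0.19 for those of 6000 bases or more. The 10 genes have longest transcripts between 2931 bases (Pkp2) and 9592 bases (Dsp), in classes of length whose medians lay between 0.05 and -0.19. After the length and GC trends of each library were removed by offsets, Gja1 (-0.62, adjusted p = 0.00411), Dsg2 (-0.61, adjusted p = 0.00601) and Jup (-0.51, adjusted p = 0.00215) were called, as were Cdh2 and Dsc2, and the value for Dsp moved to -0.18 (adjusted p = 0.265), all by edgeR's quasi-likelihood test. The alternative with offsets was chosen after the data were seen.

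**Figure D4:**
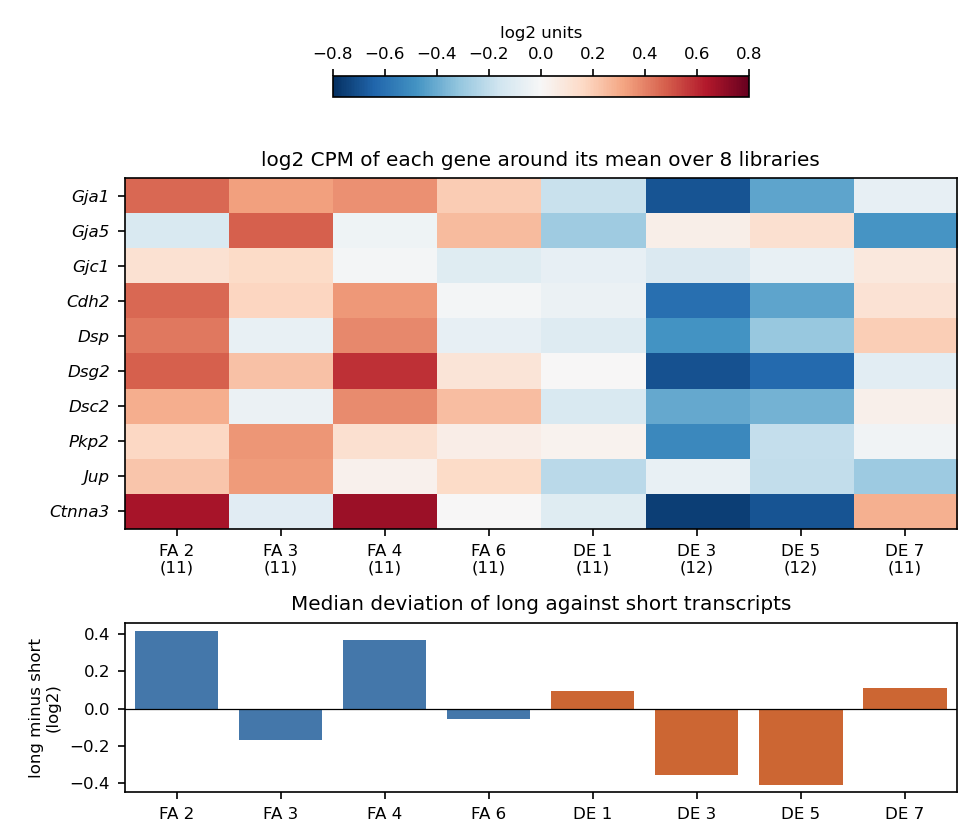
Above, log2 CPM of each gene around its mean over the 8 libraries (red higher, blue lower, name prefix in brackets). Below, the median log2 deviation of transcripts of 6000 bases or more minus that of transcripts of 1000 to 3000 bases in each library, highest in FA replicates 2 and 4 and lowest in DE replicates 3 and 5.

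Other genes of these junctions were read from lists written from general knowledge. Of 20 other connexins and pannexins, 9 were tested (median 0.10 on the log2 scale) and 0 were called by edgeR (1 at an unadjusted p under 0.05, and 0 by DESeq2). Gja4, an arterial connexin, averaged 6.92 CPM (FA) against 8.46 CPM (DE) and was not called (log2 fold change 0.29, adjusted p = 0.242). With the length and GC offsets the median of this list was -0.13. The 20 genes summed to 29.0 to 33.5 CPM in all libraries. Of 15 other desmosomal and desmin-linked genes, 7 were tested and 0 were called by edgeR (1 at an unadjusted p under 0.05, and 0 by DESeq2), with a median of 0.02. Evpl, which encodes envoplakin of epithelial cells, was at 3.02 and 4.204 CPM (log2 fold change 0.48, adjusted p = 0.0898), and Perp, a desmosomal membrane protein gene, at 282.1 and 259.3 CPM (-0.12, adjusted p = 0.471).

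All 15 other adherens junction and area composita genes were tested, with a median of -0.13, 12 of them below 0 and 1 called lower. This was Xirp2, which encodes an actin-binding Xin repeat protein of the disc. It was at 52.0, 33.2, 57.8 and 52.9 CPM in FA and at 33.9, 27.3, 25.2 and 19.8 CPM in DE, where FA replicate 3 lay within the DE range. Its log2 fold change of -0.88 (adjusted p = 0.0247, edgeR) lost its call when a single library was left out, namely FA replicate 2 (adjusted p = 0.0791), FA replicate 4 (0.0784), DE replicate 3 (0.0673) or DE replicate 5 (0.0524), and it was also lost with the length and GC offsets, where the value moved to -0.56 (adjusted p = 0.0618), and in the prefix 11 libraries alone, where it was -0.86 (adjusted p = 0.105). DESeq2 called 3 genes of this list. Of the catenins in this list, named after their values were seen, Ctnnb1 was at 738.2 ± 29.9 and 724 ± 43.3 CPM in FA and DE (log2 fold change -0.03, adjusted p = 0.869) and Ctnna1 at 739.2 ± 51.1 and 622.5 ± 81.0 CPM (-0.25, adjusted p = 0.190). Ctnnd1, the p120-catenin gene, was at 269.2 ± 25.8 and 230.5 ± 43.0 CPM (-0.22, adjusted p = 0.319), its relative Arvcf at 52.9 and 49.2 CPM (-0.10, adjusted p = 0.582), and the low Ctnna2 at 0.407 and 0.630 CPM (0.74, adjusted p = 0.351). Of 8 other cadherins, 6 were tested and 0 were called by edgeR (1 at an unadjusted p under 0.05, and 0 by DESeq2), with Cdh4 at 0.63 and Cdh3 at -0.38 having the smallest p.

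The 14 scaffold, channel and adhesion partners of the disc were all tested and had a median of -0.23, with 12 below 0.

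**Figure D5:**
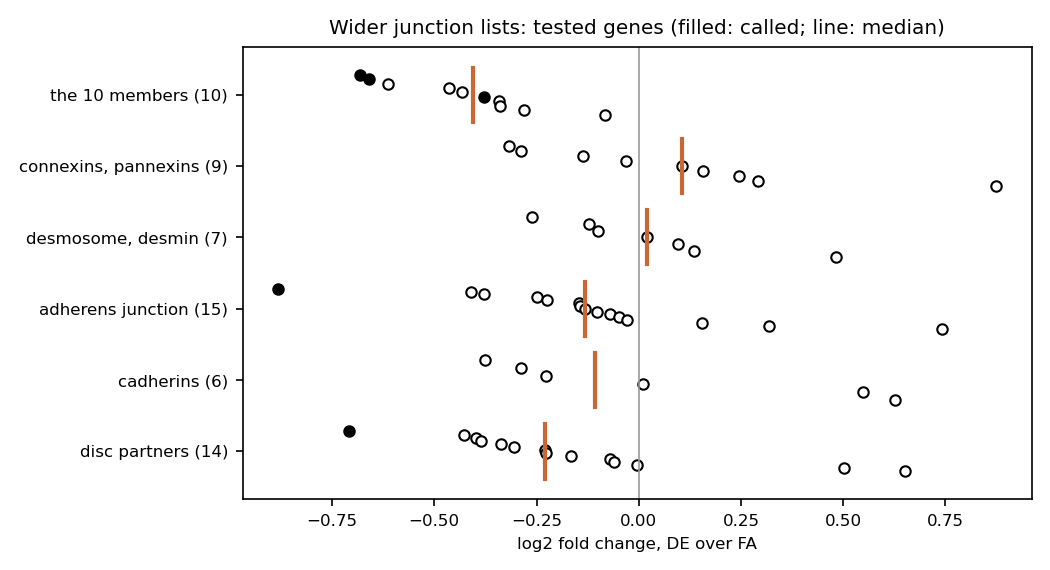
log2 fold change of DE over FA for the tested genes of the 10-gene set and 5 wider junction lists (number tested in brackets), with called genes filled and the median of each list as an orange line. The 10-gene set has a median of -0.41 and the other lists have medians between -0.23 and 0.10.

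By the root mean square difference of centred log2 CPM over the 8 libraries, among 9189 other genes averaging 10 CPM or more, the genes nearest to Gja1 were Slf2 (0.07 log2 units), Gm16793 (0.09) and Clasp1 (0.10). Those nearest to Gja5 were Ptges2 (0.06), Dgat1 (0.06) and Ifrd2 (0.07). The members' own spread around their means was 0.38 for Gja1 and 0.28 for Gja5 on the same scale.

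Markers of other cell types were read in the same libraries. All 10 fibroblast markers had log2 fold changes above 0 (median 0.66) and 3 of them were called higher (Col1a1, Dcn and Dpt). Of the 10, 8 had an unadjusted p under 0.05, and the number called was 8 in each of DESeq2, edgeR's likelihood ratio test and the fit with length and GC offsets. In the prefix 11 libraries alone 3 were called and the median was 0.82. Their summed level spanned 2059 to 3549 CPM in FA and 3751 to 6311 CPM in DE, without overlap. The sums overlapped between FA and DE for the 10 endothelial (1359 to 1749 and 1477 to 2155 CPM), 8 arterial endothelial (234.3 to 305.5 and 247.5 to 342.6), 9 smooth muscle and pericyte (1215 to 1861 and 877.8 to 1323), 8 atrial (572.2 to 1342 and 560.8 to 900.5), 10 conduction system (162.7 to 219.8 and 156.7 to 188.2), 10 leukocyte (12.7 to 19.0 and 16.2 to 27.1), 10 mesothelial and epithelial (110.8 to 145.3 and 106.5 to 149.1) and 5 erythroid markers found (287.8 to 716.5 and 445.3 to 748.1). Nppa was the largest part of the atrial sum (mean 704 CPM in FA and 398 in DE). Of the 8 atrial markers 7 had log2 fold changes above 0 (median 0.29). Acta2 was the largest part of the smooth muscle and pericyte sum (mean 1151 CPM in FA and 746 in DE). Of those 9 markers 6 lay above 0 (median 0.13). Medians of the other lists were 0.27 (endothelial), 0.09 (arterial endothelial), 0.49 (leukocyte), 0.39 (erythroid), 0.05 (mesothelial and epithelial) and -0.15 (conduction system). Of these lists the erythroid one had 1 called gene, Slc4a1, and the others 0 by edgeR, with 5 endothelial, 2 arterial endothelial, 1 smooth muscle and pericyte, 2 leukocyte, 2 atrial, 2 conduction system and 1 mesothelial and epithelial gene at an unadjusted p under 0.05. DESeq2 called 3 endothelial, 1 smooth muscle and pericyte, 1 leukocyte, 1 atrial and 1 conduction system gene. No marker found in the table was at 0 counts in all libraries, and Cd3e, a T cell marker, had 7 in all. The part of other cell types in the junction genes' differences was not tested.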

How the data were processed

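RNA-seq counts of 8 NCM libraries (4 FA, 4 DE) were analysed. Per the labels and methods, the authors selected poly-A RNA, made stranded libraries, aligned reads to mm10 with Ensembl v67 transcripts in TopHat, marked duplicates without removing them with Picard, realigned with GATK and used featureCounts to count fragments. What the authors deposited are these counts as whole numbers, by Entrez ID and not normalized. The counting annotation, strand setting and treatment of multiply mapped reads are not given in the sources used here. Whether the counting skipped marked duplicates is not stated either. The p-values weigh the group difference against the spread between these libraries, which are not independent if pups shared a dam.

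Entrez IDs were matched to symbols on GRCm38.p6 (the assembly also called mm10) for 25275 of 27179 genes. Genes were filtered with filterByExpr (minimum count 10), scaled by TMM and fitted with edgeR 4.0.16 (glmQLFit, glmQLFTest) under R 4.3.3. Exposure was the only term. Alternatives included DESeq2 1.42.0 and limma 3.58.1 (voom). The biological coefficient of variation was 15.95%. Lengths and GC content came from GENCODE M21 transcripts and covered 92.55% of tested genes. The code was tested on simulated data. Members and lists were chosen with earlier results of these data known. Named genes were the 10 members, the called genes of each list or else the 2 with the smallest p, and the 3 nearest to Gja1 and Gja5. Values of 2 genes that this rule names in the lists are not reported here.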

Additional observations from a re-analysis of the deposited data

How the results depend on the processing

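Of the 10 junction genes, 3 were called with all 8 libraries. The count was 0 with the 25% difference built into edgeR's quasi-likelihood test (2 at an unadjusted p under 0.05), 0 with the name prefix as a term (4) and 0 with the prefix 11 libraries only (4), while DESeq2 and edgeR's likelihood ratio test each called 4 over all libraries. It was 1 with library totals alone and 5 with the length and GC offsets. Leaving out single libraries gave 0 to 3, with 0 without FA replicate 2 and 0 without FA replicate 4 (6 at an unadjusted p under 0.05 in each), 1 without FA replicate 3, 1 without DE replicate 3 and 1 without DE replicate 5. Over all tested genes, 868 were called, 1618 with DESeq2, 1603 with the likelihood ratio test, 114 with the built-in difference, 448 with the prefix as a term, 260 in the prefix 11 libraries, 1581 with the offsets, and 237 to 1168 when single libraries were left out. Apart from the effect of fewer libraries where some were left out, the cause of these shifts was not tested. No log2 fold change of the 10 genes changed sign in the 22 alternatives, of which the offsets were chosen after seeing the data. No paired analysis was possible because the labels give no litter, dam or other link between FA and DE libraries. Each of the 10 genes had 4752 or more counts over the libraries, and the effect of depth was not tested.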
